A study of Mus musculus with 2 samples.

Results

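The 10 genes described here belong to the Wnt pathway and were followed through the cells of the mouse yolk sac at stage E8.75: the ligand genes Wnt2 and Wnt5a, the modulator genes Rspo3, Dkk1, Sfrp1 and Notum, the transcription factor genes Lef1 and Tcf7, and the feedback genes Axin2 and Nkd1. They were chosen as genes of this pathway, with earlier results of these data known, and are 10 of 30970 gene rows. Yolk sacs had been dissected, dissociated, tagged with CellPlex oligonucleotides and pooled for single-cell RNA sequencing. The study set cell types that carry primary cilia against visceral endoderm and its derivatives, which it describes as lacking them. All cells came from animals that carried Ttr-Cre/+ and R26lsl-rtTA-EGFP/+. The first allele expresses Cre under the Ttr promoter, which is active in visceral endoderm, and the second expresses rtTA and EGFP once Cre has acted. There was 1 genotype and no treated or transgene-free group, so cell classes are compared within 3 tagged samples, labelled Ctrl1, Ctrl2 and Ctrl3 and called 1, 2 and 3 here.

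Secreted Wnt proteins bind Frizzled receptors with Lrp5 or Lrp6 as co-receptor, which stabilises beta-catenin. Beta-catenin then enters the nucleus and works with the DNA-binding proteins of the TCF/LEF family, and among the genes it turns on are Axin2, Nkd1 and Notum, whose products dampen the signal. R-spondins strengthen the response by sparing Frizzled receptors from degradation, whereas Dkk1 blocks Lrp5 and Lrp6, secreted Frizzled-related proteins bind the ligands, and Notum removes the lipid they need. Wnt5a is best known for signalling that does not use beta-catenin. The yolk sac itself is an extraembryonic tissue with an outer layer of visceral endoderm, an inner layer of mesoderm, and blood islands and vessels between them.

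Of 1817 deposited cells 1740 passed the filters, and 1502 fell into 1 of 5 classes that were set by the share of UMIs (unique molecular identifiers, counted RNA molecules) in a few marker genes. Endoderm had at least 0.3% of UMIs in Ttr, Apob and Apom, erythroid cells at least 3% in 7 globin genes, endothelium at least 0.04% in Cdh5, Ctla2a and Plvap, and mesoderm at least 0.03% in Hand1, Vcan and Foxf1. Mesoderm cells with 5 or more UMIs of Ttn, Myh6 and Tnnt2 formed a class of their own, called contractile mesoderm. None of the 10 genes was used in these gates. The classes held 559 endoderm, 157 mesoderm, 42 contractile mesoderm, 115 endothelium and 629 erythroid cells. Their median depth was 56338, 34923, 35780.5, 35699 and 47771 UMIs per cell in that order. The remaining 50 cells in several classes and 188 in none were left out of the comparisons.

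The classes were checked against markers that the gates had not used. Levels are given as CPM, the UMIs of a gene per 1000000 UMIs of its class. The 8 endoderm markers, such as Afp and Cubn, summed to between 18113 and 24113 CPM in endoderm and to at most 918.6 in the other 4 classes. The 7 endothelial markers summed to at least 1268 in endothelium and at most 95.1 elsewhere, and Emcn was at 0 in both mesoderm classes. The 8 mesoderm markers, such as Pdgfra and Col1a2, summed to 518, 895 and 799 in mesoderm in the 3 tagged samples. They summed to 510, 604 and 661 in contractile mesoderm and to at most 73.6 in the other classes. The 6 contractile markers summed to 2116, 2505 and 511 in contractile mesoderm in the 3 tagged samples and to at most 94.8 in mesoderm. Erythroid cells made up 18.3%, 34.5% and 49.2% of the passed cells of the 3 samples. Markers of trophoblast, which the dissection could carry along, summed to 73.7, 18.1 and 15.9 in mesoderm, and 14 of its 157 cells had 5 or more such UMIs. Tpbpa, Prl3d1 and Prl2c2, which mark differentiated trophoblast, were at 0 in mesoderm, whereas Ascl2 of the same list had 95 UMIs there. The same 3 genes were also at 0 in the cells of no class, of which 34 of 188 had 5 or more trophoblast UMIs. A list of 4 maternal decidua markers was highest in the mesoderm classes, at 111, 211 and 179 in mesoderm and 229, 270 and 363 in contractile mesoderm. Of their cells 79 of 157 and 38 of 42 had 5 or more such UMIs, none of them of Prl8a2. Blood progenitor and megakaryocyte markers summed to 116, 153 and 195 in endothelium, where 44 of 115 cells had 5 or more. What these cells are was not tested. No cell barcode occurred in more than 1 tagged sample. Although the study speaks of 3 embryos, each tagged sample held both Xist cells and cells with Y-linked RNA (181 and 150, 259 and 177, 217 and 344). The tagged samples are the replicates here, and the labels do not settle how many embryos each of them holds. All p-values measure only the spread between them.

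Start-site sequences are shown for Axin2 and Lef1, a feedback gene and a nuclear factor that were both higher in mesoderm, and a short site for Dkk1, since letters bound by the TCF/LEF family and by GC-box factors, among them the Sp family of the study's title, could be searched there. RefSeq (GRCm38.p6) promoter entries existed for 6 of the 10 genes; Notum, Rspo3, Wnt5a and Sfrp1 had none. Each entry runs from 250 bases before to 50 after a start site. Both strands were searched. For TCF/LEF the letters were CTTTGAT, held by 3.73% of all 32851 promoter entries. The next form, CTTTGTT, was held by 5.85%. The last form, CTTTGAA, was held by 5.14%, and at least 1 of the 3 forms by 13.9%. For the GC box the letters were GGGCGGG, held by 25.6%. No position can match more than 1 of these motifs on a strand. The 250 bases before the start site of Axin2 (chr11:108920099-108920348, plus strand) and of the first Lef1 entry (chr3:131110047-131110296, plus strand) follow with GGGCGGG in capitals, and then 26 bases of the Dkk1 entry (chr19:30549588-30549613, minus strand), from 117 to 92 before its RefSeq start, with both TCF/LEF matches in capitals. In GENCODE M21 the Dkk1 gene reaches to 30549665, so these 26 bases lie inside the annotated gene.
Axin2: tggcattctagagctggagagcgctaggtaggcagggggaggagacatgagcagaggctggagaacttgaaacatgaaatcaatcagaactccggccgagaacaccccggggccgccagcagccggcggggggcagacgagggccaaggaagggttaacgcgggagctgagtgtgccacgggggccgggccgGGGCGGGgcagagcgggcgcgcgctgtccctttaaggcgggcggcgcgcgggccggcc
Lef1: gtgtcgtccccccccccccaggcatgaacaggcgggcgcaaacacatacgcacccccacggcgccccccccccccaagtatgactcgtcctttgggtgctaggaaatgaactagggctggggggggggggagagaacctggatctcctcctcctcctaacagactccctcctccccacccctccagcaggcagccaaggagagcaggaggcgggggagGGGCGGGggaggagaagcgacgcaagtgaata
Dkk1: CTTTGAAatcccatcccggCTTTGTT

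In Axin2 the GC box begins at base -58 from the start site, and in the printed Lef1 entry at -32. GGGCGGG occurred in 7 of the 10 entries of these genes, which are 3 of Lef1, both of Tcf7 and those of Wnt2 and Axin2. The entries are not independent, since a gene can have several and a pair of the Lef1 entries hold the same match. Matches in 1 Lef1 and 1 Tcf7 entry and the Wnt2 match at 36 lie inside the annotated genes, and the Tcf7 match at -148 lies in letters that resemble coding sequence of its long form. Of the 3 TCF/LEF forms, a match was found in 1 of the 10 entries, that of Dkk1, with CTTTGAA at -117 and CTTTGTT at -98. These are matches of letters in a short window, and no binding was measured.

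Levels below are in CPM, given for tagged samples 1, 2 and 3 in that order, with a mean ± SD over the 3 for the highest class. Differences are log2 values from edgeR's quasi-likelihood test on summed counts, 3 sums a class, with adjusted p (Benjamini-Hochberg) taken over all genes tested and called under 0.05. In mesoderm against endoderm 8 of the 10 genes passed the low-count filter (Notum and Sfrp1 did not), and all 8 were called higher in mesoderm. Of all 10803 genes tested there, 28.1% were called higher and 31.5% lower. A gene low in endoderm, as Wnt5a, Rspo3, Lef1 and Wnt2 were, can pass the filter only through its mesoderm level. A lower call was not open to such genes, so this count describes the genes tested and not the 10. The same limit holds for genes low in 1 class of the other comparisons. The endothelium was called higher for Rspo3 and lower for Dkk1, of 4 genes tested, against 28.6% and 31.9% of all genes. Erythroid cells were called higher for Wnt2 and lower for Nkd1, Axin2 and Dkk1, of 5 tested, against 36.1% and 41.8%. Set against endothelium, mesoderm was called higher for Nkd1, Wnt5a and Tcf7 and lower for Rspo3, of 5 tested (background 14.5% higher and 18.4% lower). In contractile mesoderm against mesoderm, 1 of 7 genes tested was called, Wnt2, where 0.281% of all genes were called higher and 0.384% in either direction. Wnt2 passed this filter only through its contractile level, so a lower call was not open to it.

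**Figure D1:**
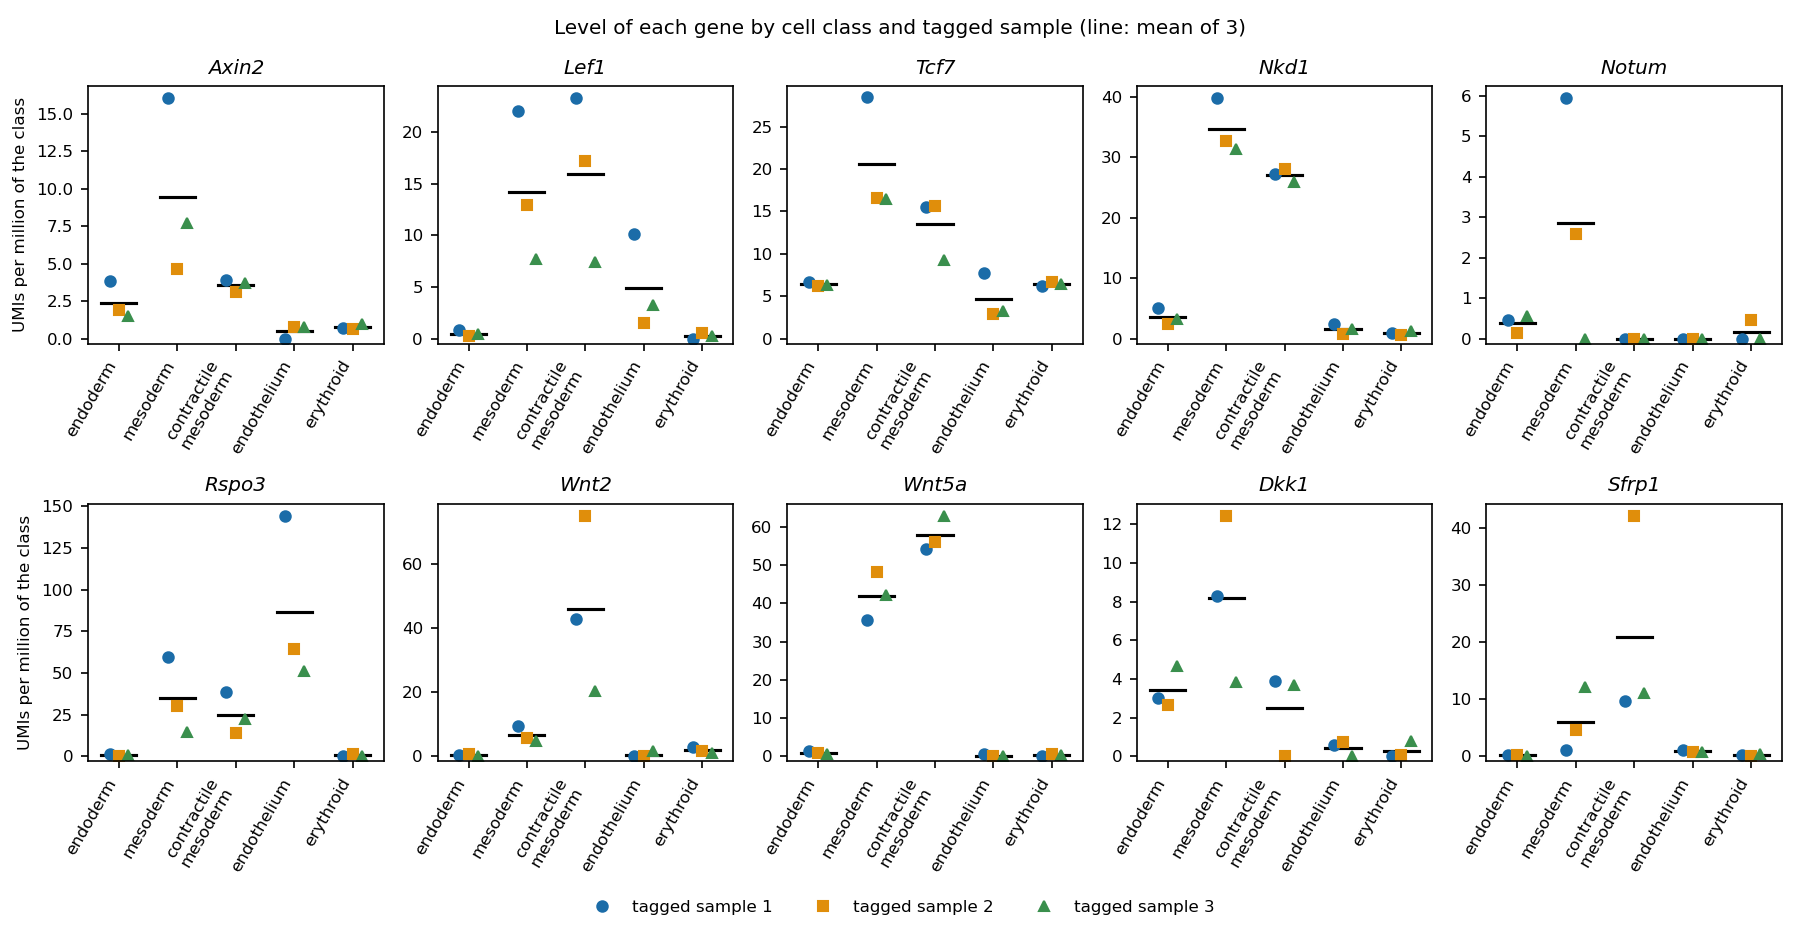
Level of each of the 10 genes in CPM (vertical axis, linear) in the 5 cell classes, with 1 point per tagged sample and a line at the mean of the 3. Wnt5a and Nkd1 stand high in both mesoderm classes in all 3 samples, Rspo3 is highest in endothelium, and Wnt2 is highest in contractile mesoderm.

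Wnt5a had a high level in both mesoderm classes and was nearly missing elsewhere. It stood at 35.6, 48.2 and 42.3 CPM in mesoderm and at 54.3, 56.1 and 62.9 in contractile mesoderm (mean 57.8 ± 4.53, SD, n = 3). The 3 values of contractile mesoderm lay above the 3 of mesoderm, but the difference was not called, at 0.42 (SE 0.19, adjusted p = 0.541). Endoderm had 1.34, 0.901 and 0.545, so every mesoderm sum was far above every endoderm sum, and the log2 difference was 5.25 (SE 0.25, adjusted p = 1.18e-08). In endothelium 1 UMI was counted against 230 in mesoderm, a ratio of mesoderm to endothelium of 182 (32.3 to 7215) by an exact 95% counting interval, and edgeR called it with an adjusted p of 1.19e-07. That UMI was in tagged sample 1, and without this sample the adjusted p was 1.28e-10. Erythroid cells were at 0.232, 0.653 and 0.357, a range that overlapped that of endoderm.

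Single cells also set the mesoderm classes apart. With every cell thinned to 20000 UMIs, 58 of 133 cells (43.6%, 35 to 52.5) of mesoderm had a Wnt5a UMI, the interval being an exact binomial one that covers counting error only. In contractile mesoderm it was 20 of 41 cells (48.8%, 32.9 to 64.9). In erythroid cells it was 8 of 616 cells (1.3%, 0.562 to 2.54), and in endothelium 0 of 84 cells, with an interval up to 4.30%. Whether free RNA left the erythroid UMIs was not tested. Thinning left out 24 mesoderm, 1 contractile mesoderm, 31 endothelium, 13 erythroid and 48 endoderm cells as too shallow. Without thinning 84 of 157 mesoderm and 11 of 629 erythroid cells had a UMI.

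Wnt2, the other ligand gene, set the contractile mesoderm apart. It reached 42.7, 74.9 and 20.4 CPM there, on 22, 48 and 11 UMIs (mean 46 ± 27.4, SD, n = 3), against 9.51, 5.7 and 4.95 in mesoderm. All 3 contractile sums were above all 3 mesoderm sums, though they differed among themselves, with tagged sample 2 the highest and 3 the lowest. The log2 difference was 2.77 (SE 0.43, adjusted p = 0.0115), in a gene that passed the filter only through its contractile level. The call ended without tagged sample 2 (2.09, adjusted p = 0.173) and with all class gates raised to 2 times their share (1.76, adjusted p = 0.161). In this comparison the number of genes called moved from 30 to 78 with the tagged sample as a block, and no call of the 7 genes changed with it. A single cell held 23 of the 81 Wnt2 UMIs of contractile mesoderm, and 21 of its 42 cells held at least 1.

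Within the mesoderm gate the Wnt2 level was higher at each step of contractile UMIs. Pooled over samples it was 5.02 CPM in the 74 cells with 0 contractile UMIs, 8.09 in the 83 cells with 1 to 4, 21.6 in the 23 cells with 5 to 9 and 72.8 in the 19 cells with 10 or more. Wnt5a did not follow this order, at 29.4, 54.2, 62.5 and 53.2. Sfrp1 was at 10.8, 1.76, 18.0 and 26.6, and Dkk1 at 16.2, 1.06, 2.40 and 2.31. These steps were chosen after the data were seen, pool cells of all 3 samples and have no test.

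**Figure D2:**
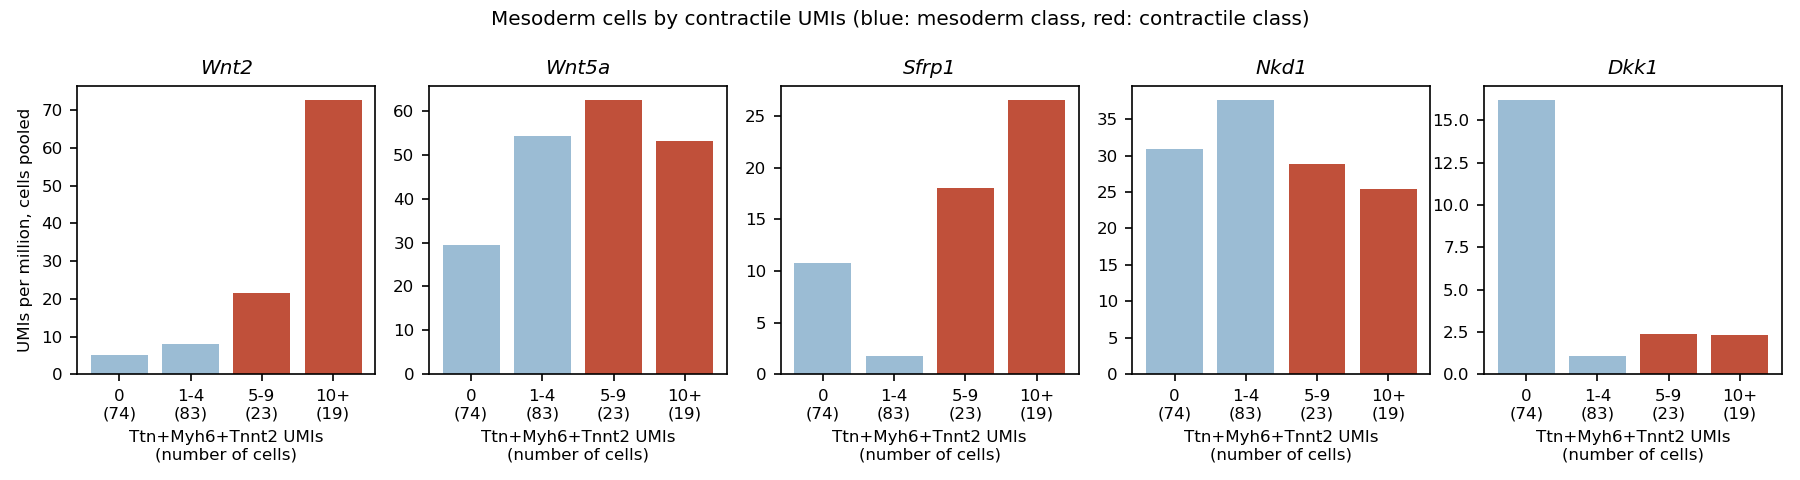
Level of 5 genes (CPM, linear axis from 0) in cells of the mesoderm gate split by their summed Ttn, Myh6 and Tnnt2 UMIs, with the number of cells in brackets. The bars pool the 3 tagged samples, blue for the mesoderm class and red for the contractile class; Wnt2 goes from 5.02 to 72.8, whereas Dkk1 is highest, at 16.2, in cells with no contractile UMI.

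Outside the contractile cells Wnt2 was low, and mesoderm was still above endoderm. Endoderm had 0.56, 0.832 and 0, on 17 UMIs of which 9 were in 1 cell, and the log2 difference of mesoderm to endoderm was 3.42 (SE 0.61, adjusted p = 4.58e-04). Without tagged sample 2 it was 4.37. Erythroid cells had 3.01, 1.68 and 1.01, on 48 UMIs spread over 38 cells, all 3 sums above the endoderm sums. This difference was 1.83 (SE 0.62, adjusted p = 0.0178), and it was not called without tagged sample 1 (1.62, adjusted p = 0.0566). Thinned, 21 of 616 cells (3.41%, 2.12 to 5.16) of the erythroid class had a Wnt2 UMI against 1 of 511 cells (0.196%, 0.00495 to 1.09) of endoderm. The endoderm share rests on 1 cell of a random draw, and unthinned the shares were closer, 38 of 629 and 9 of 559 cells (6.04% and 1.61%).

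Rspo3, an R-spondin, had its highest level in the vessel lining. Endothelium held 144, 64.7 and 51.2 CPM on 243, 88 and 64 UMIs (mean 86.7 ± 50.3, SD, n = 3), with tagged sample 1 highest and 3 lowest. Mesoderm followed with 59.4, 30.1 and 14.8 and contractile mesoderm with 38.8, 14 and 22.2, and sample 1 was again the highest in both. Endoderm had 1.34, 0.208 and 0.981 and erythroid cells 0, 1.59 and 0.119. Against endoderm the log2 difference was 6.73 (SE 0.47, adjusted p = 6.16e-08) for endothelium and 5.25 (SE 0.56, adjusted p = 8.21e-06) for mesoderm. With cells called as doublets by Scrublet removed, these differences were 7.74 and 6.24, and the mean endoderm level went from 0.844 to 0.397.

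Although the ranges of endothelium and mesoderm overlapped, within each tagged sample the endothelium was the higher class. Mesoderm was called lower by edgeR, at -1.47 (SE 0.41, adjusted p = 0.0142), but DESeq2 did not call it (-1.42, adjusted p = 0.167), nor did edgeR once tagged sample 2 was left out (-1.57, adjusted p = 0.0521). Most endothelial cells contributed. After thinning 61 of 84 cells (72.6%, 61.8 to 81.8) of endothelium had an Rspo3 UMI, against 29 of 133 cells (21.8%, 15.1 to 29.8) of mesoderm and 4 of 616 cells (0.649%, 0.177 to 1.65) of erythroid cells. Without thinning it was 78 of 115, 46 of 157 and 7 of 629 cells.

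**Figure D3:**
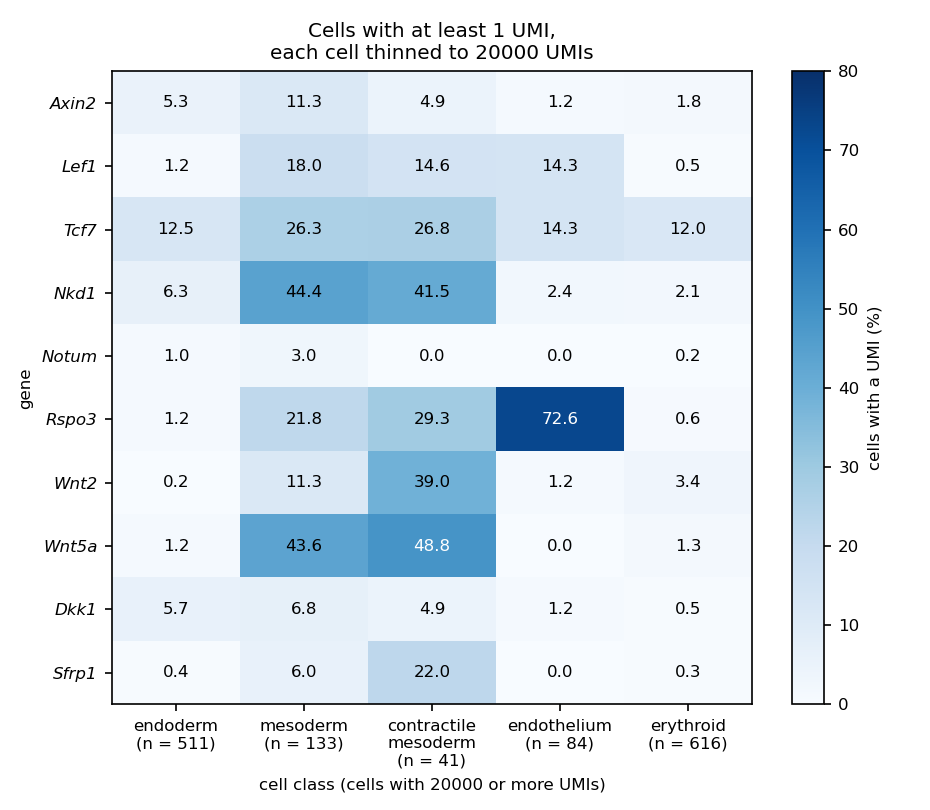
Percent of cells with at least 1 UMI of each gene (rows) in the 5 classes (columns), after each cell was thinned to 20000 UMIs; darker blue is a higher percent and n is the number of cells deep enough. The highest value is Rspo3 in endothelium, at 72.6%, followed by Wnt5a in contractile mesoderm, at 48.8%.

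Dkk1, the Lrp5 and Lrp6 blocker, was found in endoderm as well as in mesoderm. Endoderm held 3.02, 2.63 and 4.68 CPM, on 108 UMIs spread over 73 cells. Endothelium held 0.594, 0.735 and 0, on 2 UMIs in all, and the ratio of endoderm to endothelium was 7.13 (1.93 to 59.6) with an edgeR adjusted p of 0.00435. Erythroid cells held 0, 0.0934 and 0.775, and 13 of their 14 UMIs were in tagged sample 3. Every erythroid sum was below every endoderm sum, at -2.74 (SE 0.53, adjusted p = 5.35e-04). Without tagged sample 3 this difference was -4.96, and that of endothelium -2.19.

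The mesoderm level of Dkk1 came from few cells. Mesoderm stood at 8.32, 12.4 and 3.85 (mean 8.2 ± 4.3, SD, n = 3), a range that overlapped endoderm, and 38 of its 45 UMIs were in 5 of 157 cells. The log2 difference to endoderm was 1.05 (SE 0.40, adjusted p = 0.0394). DESeq2 did not call it (1.03, adjusted p = 0.0775), and edgeR did not with Scrublet calls removed (0.96, adjusted p = 0.0527). Leaving out tagged sample 1 (1.0, adjusted p = 0.0877) or 2 (0.42, adjusted p = 0.503) also ended the call, and leaving out 3 gave 1.67. The difference turned to -1.56 (adjusted p = 0.0503) with the class gates at 2 times their share. With those gates the mean mesoderm level was 1.02 in place of 8.20. The share of cells with a Dkk1 UMI was 9 of 133 cells (6.77%, 3.14 to 12.5) in mesoderm and 29 of 511 cells (5.68%, 3.83 to 8.05) in endoderm after thinning, with overlapping intervals.

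Sfrp1, a secreted Frizzled-related protein gene, was found mainly in the mesoderm classes. Contractile mesoderm had 9.7, 42.1 and 11.1 CPM (mean 21 ± 18.3, SD, n = 3) and mesoderm 1.19, 4.66 and 12.1, with overlapping ranges and, in mesoderm, 17 of 33 UMIs in 1 cell. The difference between them was not called, at 1.82 (SE 0.65, adjusted p = 0.392), and was 0.59 without tagged sample 2 and 3.09 without tagged sample 3. With no low-count filter it was called (1.77, adjusted p = 0.00124). Endoderm had 0.224, 0.277 and 0, below every mesoderm sum, and did not pass the filter with mesoderm. The pooled ratio of mesoderm to endoderm was 33 (13.6 to 96.2), and a two-sided exact permutation test over the 3 and 3 sums gave p = 0.1, the smallest it can give. With the sums paired by tagged sample, the exact test gave p = 0.25, again its smallest.

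Notum, the Wnt deacylase, was rare everywhere. Mesoderm held 10, 5 and 0 UMIs in the 3 tagged samples, or 5.94, 2.59 and 0 CPM (mean 2.84 ± 2.98, SD, n = 3). Endoderm held 11 UMIs (0.448, 0.139 and 0.545 CPM), the ranges overlapped, and the exact permutation test gave p = 0.4 (two-sided), or p = 0.5 with the sums paired by tagged sample. The ratio on pooled counts was 8.17 (3.51 to 19.7). No Notum UMI was counted in endothelium or contractile mesoderm. The 5 erythroid UMIs were all in 1 cell.

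Where Notum was found in mesoderm, Lef1 was found too: all 8 mesoderm cells with a Notum UMI also had a Lef1 UMI, and 31 of 157 mesoderm cells had one. Their median depth was 40192.5 UMIs per cell against 34224 in the other mesoderm cells. Of the 25 mesoderm cells with an Axin2 UMI, 52.0% had a Lef1 UMI and 36.0% a Dkk1 UMI, against 13.6% and 2.27% of the mesoderm cells without Axin2. The Axin2 cells were also deeper, with a median of 38232 UMIs against 33945.5. These pairs were looked at after the data were seen, the part of depth in them was not tested, and the cells share 3 samples.

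Lef1, a nuclear partner of beta-catenin, stood higher in both mesoderm classes than in endoderm or erythroid cells. It was at 22, 13 and 7.7 CPM in mesoderm and 23.3, 17.2 and 7.4 in contractile mesoderm (mean 15.9 ± 8.01, SD, n = 3), and in both classes tagged sample 1 was highest and 3 lowest. Endoderm had 0.784, 0.208 and 0.436 and erythroid cells 0, 0.56 and 0.238, in no sample above 0.8. The log2 difference of mesoderm to endoderm was 4.72 (SE 0.50, adjusted p = 7.56e-06), and 5.39 with Scrublet calls removed. Between the mesoderm classes the ranges overlapped and the difference was 0.15 (SE 0.47, adjusted p = 0.963), which became -0.49 with class gates at 2 times their share and -0.047 without the 14 mesoderm cells rich in trophoblast markers.

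Endothelium had a Lef1 level between the others, 10.1, 1.47 and 3.2, with a single high value in tagged sample 1 that overlapped the mesoderm range. Mesoderm was higher within each sample. The log2 difference of mesoderm to endothelium was not called, at 1.30 (SE 0.53, adjusted p = 0.0796), but was called with the tagged sample as a block (1.43, adjusted p = 0.00614). It was also called without tagged sample 1 (2.03, adjusted p = 0.00559), with no low-count filter (1.30, adjusted p = 0.00431), with thinned sums (1.48, adjusted p = 0.0411) and without the trophoblast-rich cells (1.53, adjusted p = 0.0385). Thinned, 24 of 133 cells (18%, 11.9 to 25.6) of mesoderm and 12 of 84 cells (14.3%, 7.61 to 23.6) of endothelium had a Lef1 UMI, with overlapping intervals.

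Tcf7, a paralogue of Lef1, was found in all 5 classes. Mesoderm had 28.5, 16.6 and 16.5 CPM (mean 20.5 ± 6.91, SD, n = 3) and contractile mesoderm 15.5, 15.6 and 9.25. Endoderm, with 6.72, 6.17 and 6.32, and erythroid cells, with 6.25, 6.63 and 6.37, overlapped and hardly varied between samples. Endothelium had 7.72, 2.94 and 3.2. Mesoderm was higher than endoderm by 1.44 (SE 0.23, adjusted p = 2.30e-04) and than endothelium by 1.95 (SE 0.39, adjusted p = 0.00154). Endothelium was not called different from endoderm, at -0.52 (SE 0.34, adjusted p = 0.209), except without tagged sample 1 (-1.16, adjusted p = 0.0380). Erythroid cells were not called different from endoderm either, at 0.23 (SE 0.15, adjusted p = 0.177).

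The 14 mesoderm cells with 5 or more trophoblast UMIs held 23 of the 110 Tcf7 UMIs of mesoderm and 8 of the 50 Axin2 UMIs. They held 1 of 76 Lef1 and 2 of 187 Nkd1 UMIs, and no UMI of Wnt5a, Rspo3, Wnt2, Notum or Sfrp1. Without these cells mesoderm remained above endoderm for Tcf7 (1.35, adjusted p = 1.81e-04) and Axin2 (1.77, adjusted p = 0.0117).

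Nkd1, a feedback inhibitor that binds Dishevelled, gave the steadiest mesodermal level of the feedback genes. It was at 39.8, 32.7 and 31.3 CPM in mesoderm (mean 34.6 ± 4.55, SD, n = 3) and 27.2, 28.1 and 25.9 in contractile mesoderm, and the 3 samples stayed close to each other in both. The ranges of these classes did not overlap, but their difference was not called, at -0.38 (SE 0.23, adjusted p = 0.695). Endoderm had 5.04, 2.43 and 3.27, endothelium 2.37, 0.735 and 1.6 and erythroid cells 0.927, 0.653 and 1.31. Mesoderm was higher than endoderm by 3.08 (SE 0.24, adjusted p = 6.87e-07) and than endothelium by 4.24 (SE 0.36, adjusted p = 5.85e-07).

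Erythroid cells were below endoderm for Nkd1, at -1.54 (SE 0.36, adjusted p = 0.00194), and at -2.21 with sums thinned to the smallest. The endothelial difference to endoderm was not called, at -1.21 (SE 0.56, adjusted p = 0.0785), and was called with the tagged sample as a block (-1.29, adjusted p = 0.0443), with no low-count filter (-1.28, adjusted p = 0.0466) and with all 5 classes in 1 fit (-1.21, adjusted p = 0.0498). Thinned, 59 of 133 cells (44.4%, 35.8 to 53.2) of mesoderm had an Nkd1 UMI, against 32 of 511 cells (6.26%, 4.32 to 8.73) of endoderm. Without thinning it was 89 of 157 and 82 of 559 cells.

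Axin2, a scaffold of the beta-catenin destruction complex and a widely used readout of Wnt signalling, had few UMIs in all classes. Mesoderm had 16, 4.66 and 7.7 CPM on 27, 9 and 14 UMIs (mean 9.47 ± 5.89, SD, n = 3), with tagged sample 1 well above the others. Contractile mesoderm had 3.88, 3.12 and 3.7 and endoderm 3.81, 1.87 and 1.53, which overlapped. Every mesoderm sum was above every endoderm sum, and the log2 difference was 1.75 (SE 0.47, adjusted p = 0.00661). Of the 50 mesoderm UMIs, 25 were in 5 of 157 cells. After thinning, 15 of 133 mesoderm cells (11.3%, 6.45 to 17.9) and 27 of 511 endoderm cells (5.28%, 3.51 to 7.59) had an Axin2 UMI, with overlapping intervals. Erythroid cells had 0.695, 0.653 and 0.953, below endoderm, at -1.31 (SE 0.40, adjusted p = 0.0111), a difference that was not called without tagged sample 1 (-0.79, adjusted p = 0.0798). In endothelium 2 Axin2 UMIs were counted. Tagged sample 1 was the highest mesoderm sum also for Lef1, Tcf7, Nkd1, Notum, Rspo3 and Wnt2, and it had the highest trophoblast marker level there. Over all 3 samples, the 14 mesoderm cells rich in these markers held 8 of 50 Axin2 and 23 of 110 Tcf7 UMIs. They held 1 of 76 Lef1 and 2 of 187 Nkd1 UMIs and none of Notum, Rspo3 or Wnt2. The part of the trophoblast marker level in the differences between samples was not tested.

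**Figure D4:**
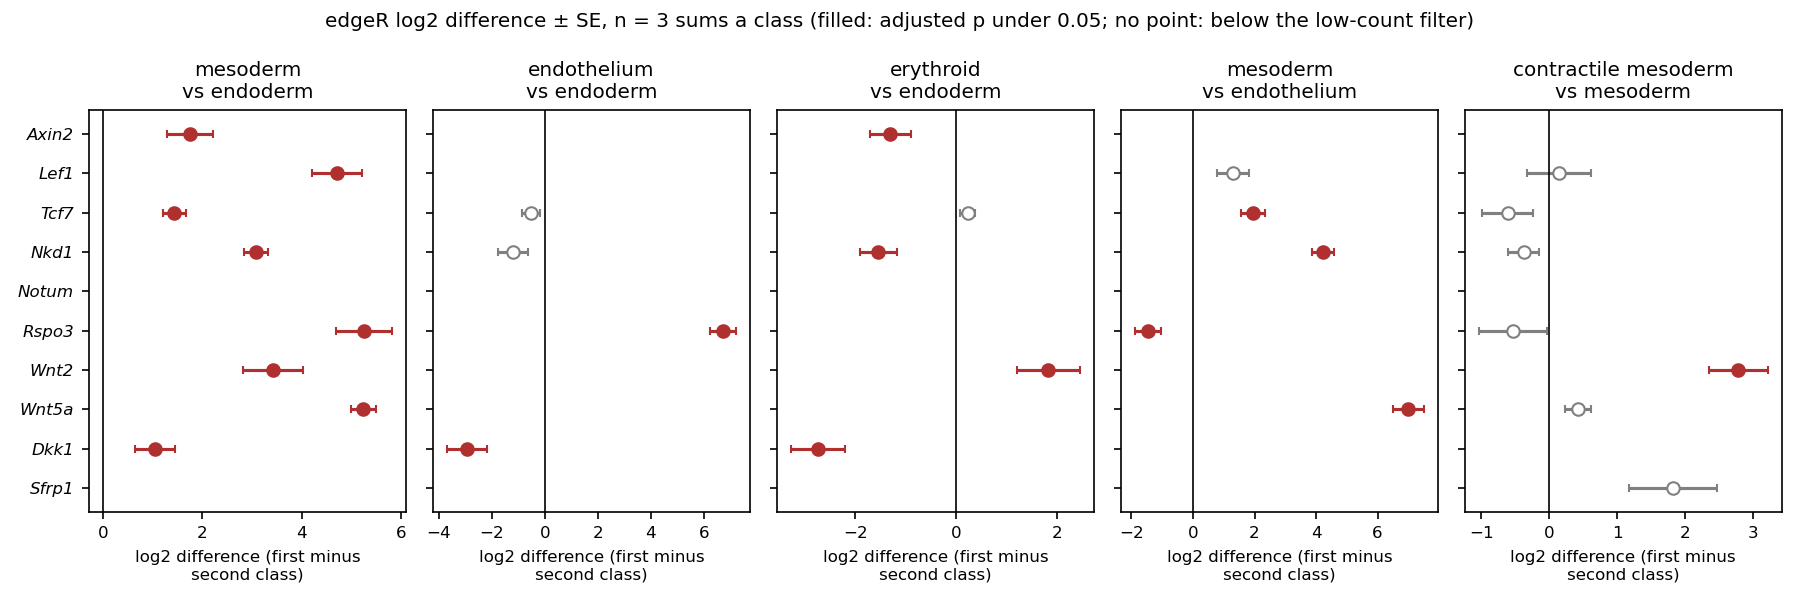
Log2 difference ± SE of each gene (rows) in the 5 comparisons (panels), from edgeR with 3 sums a class; filled points had an adjusted p under 0.05, and a gene without a point did not pass the low-count filter. All 8 genes tested lie above 0 in mesoderm against endoderm, and Wnt2 is the filled point in contractile mesoderm against mesoderm. A gene low in endoderm has a point in the first of these panels only through its mesoderm level, and Wnt2 has one in the last only through its contractile level.

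The other genes of the pathway were read from a list of 104 genes in 8 roles that includes the 10. In mesoderm against endoderm 59 passed the filter, of which 35 were called higher, 9 lower and 15 not, where 28.1% of all genes were higher and 31.5% lower. Their median log2 difference was 1.0, against -0.04 over all genes tested. A gene that is low in endoderm can pass the filter only through a high mesoderm level, so these counts describe the tested genes and not the list. In erythroid cells against endoderm 11 were higher and 34 lower of 53, where 36.1% and 41.8% of all genes were. In endothelium against endoderm 16 were higher and 16 lower of 51, near the 28.6% and 31.9% of all genes. Against endothelium, mesoderm was higher for 26 and lower for 10 of 53, where 14.5% and 18.4% of all genes were. In contractile mesoderm against mesoderm 47 were tested, Wnt2 was called higher and Ccnd1 lower.

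All 5 ligand genes tested, of 19 listed, were higher in mesoderm than in endoderm: Wnt5a, Wnt6, Wnt7b, Wnt4 and Wnt2. Of all genes tested 28.1% were higher. A ligand gene near 0 in endoderm, such as Wnt7b with 8 UMIs there, could be tested only through its mesoderm level. Wnt6 was at 48.1, 63.7 and 20.3 CPM in mesoderm and 0, 0.624 and 0.872 in endoderm, a difference of 6.12 (SE 0.54, adjusted p = 1.54e-06) that was 6.91 without tagged sample 3 and 5.28 with class gates at 2 times their share. Of its 241 mesoderm UMIs, 61 were in the 14 cells rich in trophoblast markers, and of 54 Wnt7b UMIs 49 were. Without those cells the Wnt6 difference was 5.93. Wls, which carries Wnt proteins to the cell surface, was present in both classes and higher in mesoderm by 0.61 (SE 0.10, adjusted p = 1.79e-04).

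Of 11 receptor genes tested 6 were called higher, 3 lower and 2 not, where 28.1% of all genes were higher. The share lower is near the 31.5% of all genes. Fzd2, a Frizzled receptor, was at 51.1, 94.3 and 85.2 in mesoderm and 2.35, 1.46 and 1.74 in endoderm, higher by 5.17 (SE 0.25, adjusted p = 1.46e-08), and in contractile mesoderm it was at 97, 109 and 107. Ryk, a receptor for Wnt5a, was higher by 1.22 (SE 0.09, adjusted p = 4.75e-07). Lrp5 was lower in mesoderm, at -2.03 (SE 0.26, adjusted p = 3.95e-05). In the R-spondin group the 3 genes tested, of 9 listed, were higher, beside the same 28.1%. They were Rspo3, Znrf3 and the R-spondin receptor gene Lgr4. The call of Lgr4, at 0.61 (SE 0.23, adjusted p = 0.0424), passed under 6 of 13 alternatives. It did not pass with the tagged sample as a block (0.59, adjusted p = 0.0527).

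All 5 antagonist genes tested, of 17 listed, were higher in mesoderm, where 28.1% of all genes were. Here too a gene low in endoderm, such as Dkk2 with 2 UMIs there, could be tested only through its mesoderm level. Dkk1 is 1 of the 5, and its call passed under 6 of 11 alternatives. Trabd2b, which encodes the Wnt-cleaving protease Tiki2, was at 36.8, 53.4 and 52.2 and 3.13, 2.08 and 2.51 in the 2 classes, a difference of 4.0 (SE 0.21, adjusted p = 2.27e-08). Apcdd1, a membrane inhibitor, was higher by 3.99 (SE 0.59, adjusted p = 1.10e-04), and by 3.40 without tagged sample 1 and 4.83 with Scrublet calls removed. It was high in tagged sample 1, with 35.1, 8.29 and 8.8 in mesoderm, and in endothelium it was at 27.3, 15.4 and 12.

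Of 11 genes of the cytoplasmic machinery tested, 3 were higher and 2 lower in mesoderm, with a median of 0.18, where 59.6% of all genes were called in either direction. Gsk3b, a kinase that marks beta-catenin for destruction, was higher by 1.0 (SE 0.10, adjusted p = 4.43e-06), and Amer1, a membrane adaptor of that complex, by 0.79 (SE 0.12, adjusted p = 1.31e-04). Dvl1, a Dishevelled gene, was lower, at -1.55 (SE 0.21, adjusted p = 5.63e-05). Gsk3a was lower by a smaller amount, at -0.50 (SE 0.13, adjusted p = 0.00588), and passed under 9 of 13 alternatives; it was not called with library size scaling (-0.26, adjusted p = 0.0907), thinned sums (-0.30, adjusted p = 0.136), or on leaving out tagged sample 2 (-0.41, adjusted p = 0.0855) or 3 (-0.46, adjusted p = 0.0668).

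Of 12 nuclear genes tested 6 were higher and 3 lower, where 28.1% and 31.5% of all genes were. Lef1, Tcf7 and Tcf7l1 were higher in mesoderm, the last by 2.08 (SE 0.19, adjusted p = 1.95e-06), whereas Tcf7l2 was lower, at -0.74 (SE 0.17, adjusted p = 0.00227), with the call lost in thinned sums (-0.53, adjusted p = 0.0515). Bcl9, a beta-catenin co-activator, was higher by 1.87 (SE 0.15, adjusted p = 7.79e-07). The corepressor gene Tle4 was lower, at -2.12 (SE 0.34, adjusted p = 2.15e-04), and at -2.77 without tagged sample 2 and -3.02 with class gates at 2 times their share.

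Of 11 target genes tested 6 were higher in mesoderm, 1 was lower and 4 were not called, beside the same 28.1% and 31.5%. Ccnd1, which encodes cyclin D1, was at 122, 198 and 182 in mesoderm and 4.7, 4.16 and 3.16 in endoderm, a difference of 5.14 (SE 0.20, adjusted p = 2.54e-09) and of 5.84 with Scrublet calls removed. It was higher still in endothelium, with 371, 240.4 and 215, so this gene and Axin2 or Nkd1 did not follow 1 order of classes. Tbx3 was the gene called lower, at -2.48 (SE 0.23, adjusted p = 2.25e-06). Ascl2, another gene of the list and also a trophoblast marker, had 86 of its 95 mesoderm UMIs in the 14 cells rich in trophoblast markers. Its own UMIs were counted in picking these cells, so this share was largely set by that choice. Sp5, a Wnt target and a subject of the study's title, had 12 UMIs in mesoderm and 14 in endoderm and did not pass the filter. These counts are out of 5430877 and 32540566 UMIs in all, so the level per UMI was higher in mesoderm, on few counts and without a test.

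**Figure D5:**
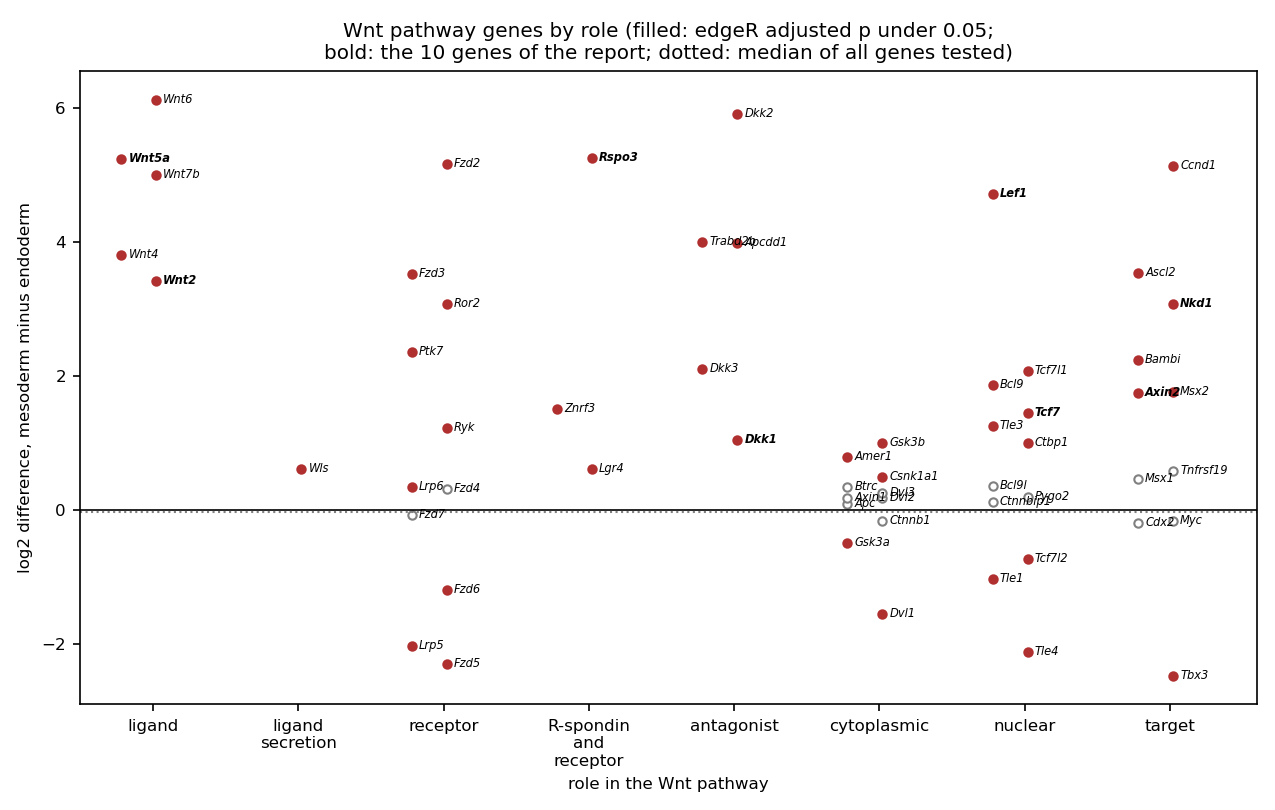
Log2 difference of mesoderm to endoderm (vertical axis) for the pathway genes that passed the filter, by role (horizontal axis); filled points had an edgeR adjusted p under 0.05, names of the 10 genes are bold, and the dotted line is the median of all genes tested. The tested ligand and antagonist genes all lie above 0, whereas receptors, nuclear and cytoplasmic genes lie on both sides. Genes low in endoderm passed the filter only through their mesoderm level.

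For each of the 8 genes with at least 100 UMIs in the 5 classes, the genes with the most similar pattern were sought over the 15 sums (5 classes by 3 samples), as Pearson r of log2(CPM + 1). The sums share 3 samples and differ in depth, so r is a description. Wnt5a was closest to Bnc2, Olfml1 and Lypd6 (r = 0.99 for each). Nkd1 was closest to Plekhh2 (0.98), Twsg1 (0.98) and Trabd2b (0.98), the last itself a gene of the Wnt list. Rspo3 was closest to Ppp1r18, Cttnbp2nl and Dlc1 (0.97 each), and Lef1 to Gm45889, Tcea1 and Bmp2 (0.96 each). Wnt2 was closest to Csrp3, Gata5 and Cep63 (0.93 each). Csrp3 and Gata5 were, with Wnt2, among the genes called higher in contractile mesoderm than in mesoderm, by 3.43 (edgeR adjusted p = 0.0111) and 2.49 (adjusted p = 0.00425). Both were picked for their likeness to Wnt2 over the same sums, so these calls are not independent of that choice. Tcf7 (Tars, Lsm3 and Rac3, 0.90 each), Axin2 (Plac8, Mpp5 and Zfp322a, 0.88 each) and Dkk1 (Pitx1 0.86, Golm1 0.85 and Arhgap8 0.84) had less close neighbours. The 3 names depended on the measure: with a pseudocount of 5 or Spearman's rho, 15 of 16 lists lost at least 1 of them, and that of Rspo3 with a pseudocount of 5 kept all 3.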

How the data were processed

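Cell Ranger 6.1.2 wrote the matrices, per the file headers, and the deposited values are raw UMI counts per gene and cell, with GRCm38 (mm10) named in the submitters' processing notes. Each tagged sample had its own matrix of 30970 genes; 6 rows of tags were not used here. Total counts of passed cells were 21864498, 32665120 and 32958744.

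Kept cells had 500 or more genes and no more than 10% of UMIs from mitochondria (77 failed). Cells in 2 classes (50) were dropped as possible doublets. Scrublet (scanpy 1.11.5) called 9, 32 and 33 cells, whose removal was an alternative. Counts were summed by class and tagged sample. Class sums ranged from 515530 to 16784528 UMIs, which limits precision for rare genes, and intervals on pooled counts cover counting error only. Comparisons of 2 classes used edgeR 4.0.16 (quasi-likelihood test by glmQLFit and glmQLFTest after TMM scaling and the filterByExpr filter, two-sided) in R 4.3.3 with limma 3.58.1. The fit was also run on simulated sums that were independent, with changes set only in genes of higher counts. That run could not test it for sums that share a tagged sample or for genes with few UMIs. Alternatives were the tagged sample as a replicate block, DESeq2 1.42.0, library size scaling, no low-count filter, all 5 classes in 1 fit, thinned sums, each tagged sample left out, class gates at 2 times their share, Scrublet calls removed, and 1000 genes with 5% mitochondrial UMIs. Leaving out mesoderm cells with 5 or more trophoblast UMIs was chosen after seeing the data. Numbers pair the classes because both come from the same tagged sample. Deviations of same-numbered sums correlated by -0.07 to 0.14 across genes, which are not independent.

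The 10 genes and the pathway list were chosen with earlier results of these data known. Named pathway genes were, per role and direction in mesoderm against endoderm, up to 2 called genes with the smallest p and a mean of at least 10 CPM in the higher class. Genes of a like pattern needed a mean of at least 20 CPM in 1 class. Wnt7b, Wnt4, Znrf3, Ascl2 and Sp5 are named outside this rule. GENCODE M21 (GRCm38) held 30900 of the identifiers, those of the 10 genes included. There Axin2 lies on chromosome 11 from 108920349 to 108950783, Wnt5a on 14 from 28504750 to 28527448, Rspo3 on 10 from 29452416 to 29535867 and Wnt2 on 6 from 17988940 to 18030585.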

Additional observations from a re-analysis of the deposited data

Results flagged for a closer look

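The 188 cells in no class lie outside the comparisons of the report, and 9 of the 10 genes had more than 3 UMIs there, the limit that a count of 0 allows. Tcf7 had 79 UMIs, Dkk1 39, Rspo3 31, Wnt2 27, Axin2 19, Nkd1 18, Sfrp1 18, Lef1 9 and Wnt5a 8, while Notum had 2. Several of these sums came from few cells: 16 of the Rspo3 UMIs, 14 of the Sfrp1 UMIs and 16 of the Dkk1 UMIs were in a single cell each. Of these cells 34 had 5 or more trophoblast marker UMIs, and they held 19 of the 39 Dkk1 and 35 of the 79 Tcf7 UMIs, but no Lef1, Rspo3 or Wnt5a UMI.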

How the results depend on the processing

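Of 344 recomputed log2 differences of the 10 genes, 321 kept their direction and side of the threshold, 10 passed it newly, 10 no longer passed and 3 reversed: Dkk1 in mesoderm against endoderm with class gates at 2 times their share (-1.56), and Lef1 in contractile mesoderm against mesoderm with those gates (-0.49) and without trophoblast-rich cells (-0.047). Of 234 for the other named pathway genes, 222 kept both and 12 no longer passed. Of 310 recomputed levels 299 moved by no more than the SD of the 3 samples. Leaving out 1 of 3 samples cannot move a mean by more than that SD, so those settings could not fail. Of the 11 that moved, 8 did so with class gates at 2 times their share. Removing Scrublet calls moved 2, and leaving out trophoblast-rich cells moved 1. The shares of cells with a UMI were less stable. Of 100 recomputed shares of the 10 genes, 59 were counted as the same and 41 as moved. Of these, 26 moved with cells thinned to 10000 UMIs and 15 without thinning. In contractile mesoderm, thinning to 10000 UMIs took the Tcf7 share from 26.8% to 11.9% and the Lef1 share from 14.6% to 23.8%. The shares therefore describe the depth at which they were taken.

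The number of genes called in contractile mesoderm against mesoderm was 30, and it was 78 with the replicate block, 63 with DESeq2, 333 with no low-count filter, 51 with all 5 classes in 1 fit, and 11 to 48 with a tagged sample left out (11 without sample 2, 48 without sample 3). For mesoderm against endothelium it was 2889, and 1845 to 3073 with a sample left out, the lowest without sample 3. The replicate block changed the call of Lef1 in mesoderm against endothelium, of Nkd1 in endothelium against endoderm and of Lgr4, and no other call of a named gene. Library size scaling moved the median of all genes by 0.23 in mesoderm against endoderm, with 4178 higher and 2618 lower in place of 3039 and 3404. It moved the erythroid median by -0.21 (3126 higher and 5310 lower in place of 3992 and 4620), the median of endothelium against endoderm by 0.13 and that of mesoderm against endothelium by 0.11 (1675 and 1304 in place of 1275 and 1614). Why these counts moved was not tested. Depth limits the genes with few UMIs in the 5 classes, which are Notum with 31, Sfrp1 with 89, Lef1 with 150 and Axin2 with 159.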
